A study of Mus musculus with 6 samples.

Results

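Glycolysis splits glucose into pyruvate, which is either reduced to lactate by lactate dehydrogenase or carried into mitochondria and oxidised by the pyruvate dehydrogenase complex. The transcripts of 34 mouse genes of this route were described in ovaries: glucose carriers, the enzymes from hexokinase to pyruvate kinase, lactate dehydrogenases, carriers of lactate and pyruvate, and the kinases and subunits of pyruvate dehydrogenase. They were chosen by gene symbol from a list of the pathway, and all 34 were found among the 37924 genes of the deposited table. Oocytes use glucose poorly and depend on pyruvate handed over by the granulosa and cumulus cells around them. In cumulus cells of grown follicles, signals from the oocyte are known to promote expression of glycolytic enzymes.

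Ovaries were taken at postnatal day 14, when the follicles are growing and have not ovulated, from mice of the strain background C57BL/6J/129S7/SvEvBrd. The control mice were homozygous for a floxed allele and had no Cre. The conditional knockout mice (cKO) were homozygous for that allele and also carried Gdf9iCre, a Cre recombinase under the promoter of an oocyte gene, so the deletion is directed to oocytes while the libraries hold the whole ovary. There were 3 libraries per genotype, and each pooled single ovaries of 3 mice, which makes every library a pool of animals and not an individual. The libraries are called control 1 to 3 and cKO 1 to 3, where the number is only a name. Values are FPKM, fragments scaled to transcript length and library size, so levels of different genes can be set side by side.

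Depth, as estimated from the lowest values, was between 19.6 and 24.9 M fragments per library (M for mega). At that depth an FPKM of 1 in a transcript of 2 kb stands for about 39.2 to 49.9 fragments. Oocyte and granulosa markers were present in all 6 libraries. The summed FPKM of 10 oocyte markers was 1091 to 1244 in control and 1462 to 2237 in cKO, while 11 granulosa markers summed to 3096 to 3915 in control and 2088 to 2444 in cKO. That granulosa sum is carried by Inha and Gja1, and 4 of its 11 markers had a positive log2 change, with Foxl2, Gatm and Kitl above the controls in all cKO libraries. Of the oocyte markers, 8 had a positive log2 change and 2 a negative one. In whole ovary, a smaller share of cells of a type and less RNA per cell cannot be told apart. Some libraries stood apart. Markers of neutrophils summed to 648 FPKM in cKO 3 and to at most 1.5 in the others, adipose markers to 40.3 FPKM in control 3 and to at most 18.1 elsewhere, and mitochondrial transcripts made up 7.31% of summed FPKM in cKO 1 against 10.7% to 14.2% in the others.

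None of the 34 genes passed the test between genotypes, which was limma on log2(FPKM + 1) with Benjamini-Hochberg adjustment over all 14934 genes tested and a threshold of 0.05 on the adjusted p. Over all genes 4.33% passed, 2.24% higher and 2.09% lower in cKO (334 and 312 genes). That background rested on single libraries: 1 gene was higher and 4 lower without control 1, 0 and 2 without control 2, 0 and 2 without cKO 1, 40 and 38 without cKO 2, and 209 and 176 without cKO 3, while 307 and 353 were called without control 3. The smallest adjusted p among the 34 was 0.065, for Slc2a3. At an unadjusted p below 0.05, 6 of the 34 were higher and 4 lower in cKO, 29.4% of them against a background of 24.3% (14.5% higher and 9.8% lower). The cKO libraries lay entirely above the controls for 6 genes and entirely below for 6 others, 35.3% of the 34 against 30.0% of all genes (18.0% above and 12.0% below). The median log2 change was 0.03, beside 0.05 over all genes, and 20 of the 34 (58.8%) were positive, beside 58.5% of all genes. By these counts the pathway as a whole was close to the background of the table. Within it, several enzymes that exist as pairs of related genes had log2 changes of opposite sign. How often pairs of genes in the table differ in sign was not computed.

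**Figure D1:**
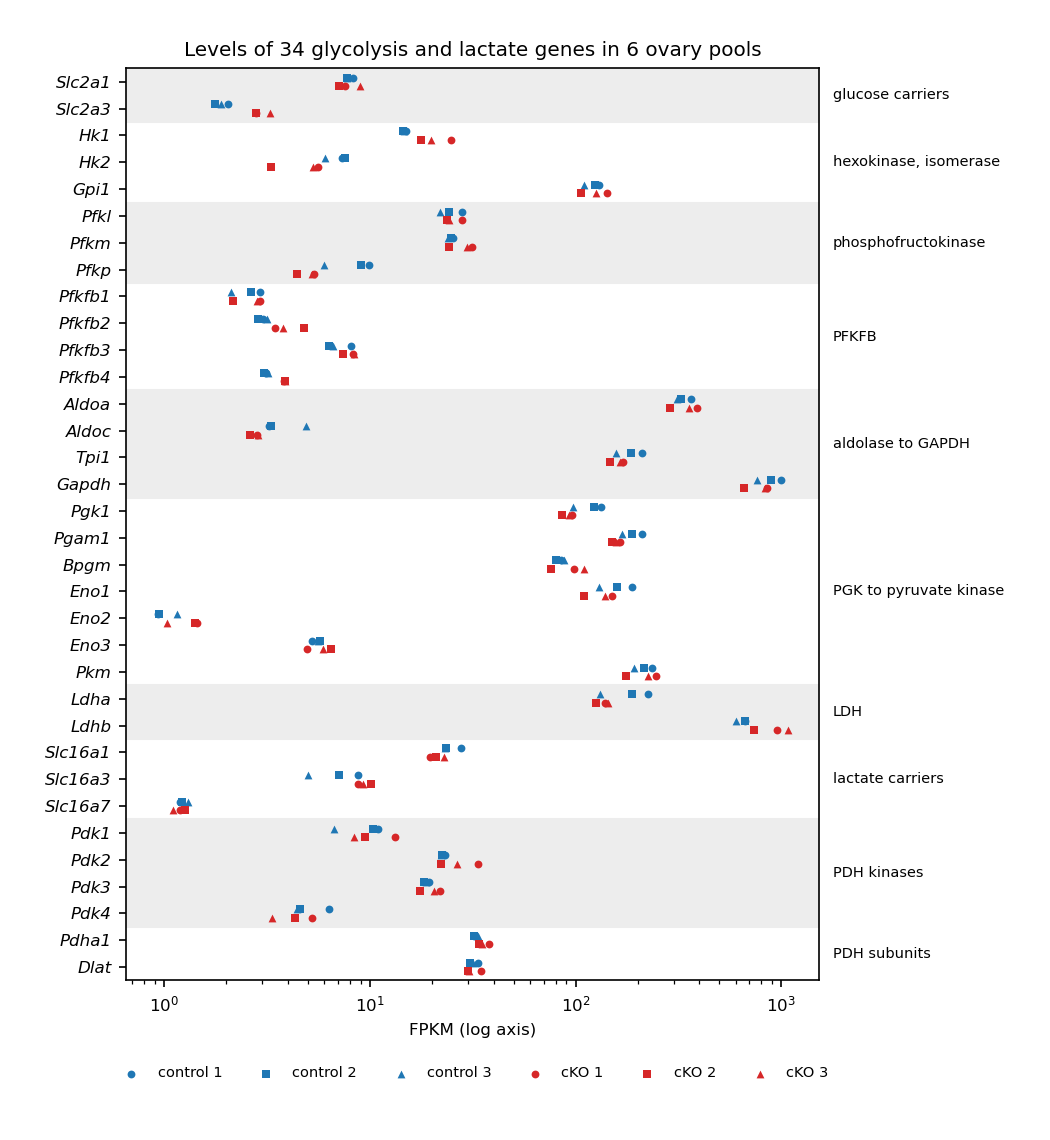
FPKM of the 34 genes (horizontal log axis) in each of the 6 ovary pools, grouped by step of the pathway; blue marks are control pools and red marks cKO pools, with shape giving the pool number. The levels span from about 1 FPKM for Eno2 and Slc16a7 to 994 FPKM for Gapdh in control 1 and 1072 FPKM for Ldhb in cKO 3.

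**Figure D2:**
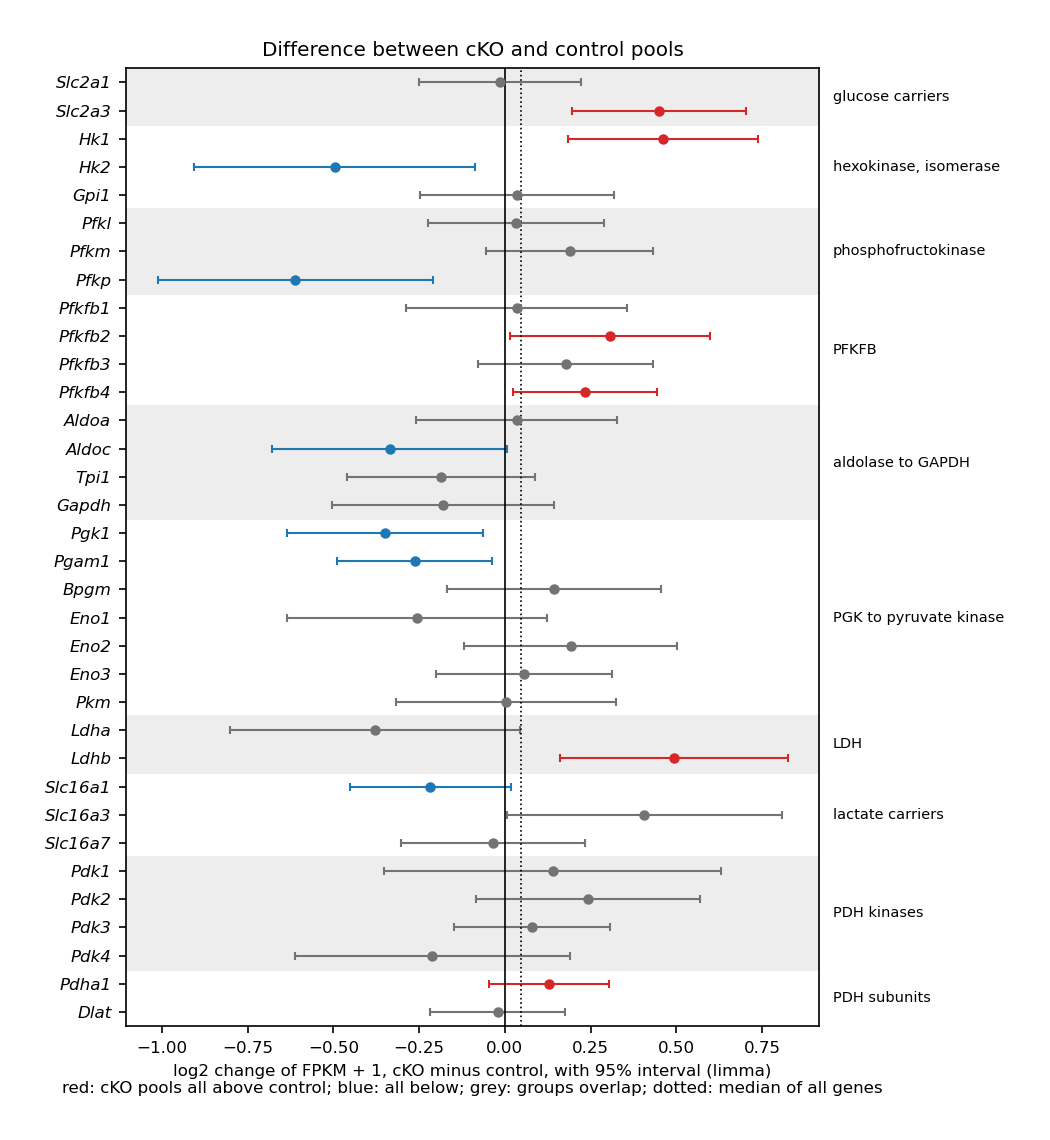
Log2 change of FPKM + 1, cKO minus control, for each of the 34 genes, with its 95% interval from limma. Points in red or blue are the 12 genes whose cKO pools lie all above or all below the control pools; none of the 34 passed after adjustment over all genes.

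Lactate dehydrogenase, which interconverts pyruvate and lactate, is a tetramer of A and B subunits, and the B subunit is the main form in mouse oocytes. The promoters of Ldha (chr7:46841475-46855627, plus strand) and Ldhb (chr6:142490249-142507957, minus strand) are shown because the log2 changes of these paralogs had opposite signs and their ratio did not overlap between genotypes. Those of the hexokinase genes Hk1 and Hk2 stand beside them, since the cKO libraries lay above the controls for Hk1 and below them for Hk2. The pairs Pfkm with Pfkp and Slc16a1 with Slc16a3 also met the rule given for Ldha and Ldhb, and are not shown. Each line gives the 250 bases before the RefSeq start that lies farthest upstream in GRCm38.p6, on the gene's strand. Capitals mark the motifs ACGTG and GCGTG on either strand, the core bound by hypoxia-inducible factor, a known activator of glycolytic genes. Where ACGTG overlaps its own reverse complement, the letters read CACGTG.
Ldha: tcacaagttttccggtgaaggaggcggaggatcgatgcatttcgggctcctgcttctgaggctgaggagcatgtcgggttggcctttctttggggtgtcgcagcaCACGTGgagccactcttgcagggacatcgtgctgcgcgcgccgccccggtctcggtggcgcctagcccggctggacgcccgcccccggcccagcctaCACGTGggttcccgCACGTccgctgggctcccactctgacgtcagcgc
Ldhb: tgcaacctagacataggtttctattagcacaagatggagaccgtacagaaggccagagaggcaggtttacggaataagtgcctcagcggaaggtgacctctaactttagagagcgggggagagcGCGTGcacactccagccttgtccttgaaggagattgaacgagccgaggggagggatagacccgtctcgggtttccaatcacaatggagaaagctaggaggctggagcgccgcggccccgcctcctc
Hk1: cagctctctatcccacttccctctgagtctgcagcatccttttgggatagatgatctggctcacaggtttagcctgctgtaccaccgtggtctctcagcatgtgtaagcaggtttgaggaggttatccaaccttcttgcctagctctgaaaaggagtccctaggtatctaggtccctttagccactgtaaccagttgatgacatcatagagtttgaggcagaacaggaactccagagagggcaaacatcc
Hk2: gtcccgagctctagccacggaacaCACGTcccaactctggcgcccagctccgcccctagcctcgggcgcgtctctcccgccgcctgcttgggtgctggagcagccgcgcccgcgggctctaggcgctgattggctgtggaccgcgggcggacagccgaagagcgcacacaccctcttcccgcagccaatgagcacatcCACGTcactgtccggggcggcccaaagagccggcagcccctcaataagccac
The Ldha window (chr7:46845554-46845803) held 5 matches of ACGTG counted over both strands, and 67.2% of its bases were G or C. Unlike the other windows it lies inside the gene's GENCODE span given above, because an annotated transcript starts farther upstream than the RefSeq start. The Ldhb window (chr6:142507958-142508207) held 1 match of GCGTG at 56.4% G or C. The Hk1 window (chr10:62379909-62380158) held no match at 49.6% G or C, and the Hk2 window (chr6:82774455-82774704) held 2 matches of ACGTG at 69.6%. Of the 34 genes, 32 had a promoter in RefSeq, and 23 of these (71.9%) held ACGTG or GCGTG, against 38.6% of all 27025 promoters of the same length. Both motifs contain CG, and the comparison was not matched for the share of G or C. The letters alone do not show that a factor binds there, and which start is used in the ovary was not analysed here. Of the genes with 2 matches of ACGTG, Hk2, Pgk1 and Slc16a1 had negative log2 changes and Pdk2, Pfkm and Slc16a3 positive ones. Whether the motifs bear on the differences between genotypes was not tested.

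Ldhb was among the most abundant genes of the group. It measured 664, 669 and 603 FPKM in control 1 to 3 and 950.1, 735 and 1072 FPKM in cKO 1 to 3, so all cKO libraries were above all controls. The mean was 646 ± 37.0 FPKM over the controls and 919 ± 171 FPKM over the cKO libraries (SD, n = 3). The log2 change was 0.49 with a standard error of 0.14 and a 95% interval from 0.16 to 0.82, at an adjusted p of 0.0937 by limma. Without both control 3 and cKO 3 the log2 change was 0.32 at an adjusted p of 0.223. Ldha, which encodes the A subunit, measured 225, 187 and 131 FPKM in control and 139, 126 and 144 FPKM in cKO. Control 3 lay among the cKO values, so the groups overlapped, and the log2 change was -0.38 with a 95% interval from -0.80 to 0.05 and an adjusted p of 0.254. Without control 3, Ldha fell by 0.59 on the log2 scale at an adjusted p of 0.0425. Without control 1 the log2 change was -0.21 at an adjusted p of 0.571, and without both control 3 and cKO 3 it was -0.63 at 0.0635.

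The balance between the subunit transcripts did not overlap between genotypes. Ldhb was 2.96, 3.57 and 4.59 times as abundant as Ldha in control 1 to 3 and 6.86, 5.85 and 7.42 times in cKO 1 to 3. Such a ratio is taken within a library, so a scaling between libraries does not move it. As a share of the summed Ldha and Ldhb transcripts, Ldhb made up 78.3% ± 3.69 in control and 86.9% ± 1.39 in cKO (SD, n = 3). The oocyte markers differed in the same libraries. Relative to the control mean, Ldhb stood at 1.47, 1.14 and 1.66 in cKO 1 to 3 and the summed oocyte markers at 1.5, 1.24 and 1.89, in the same order. This order is not particular to them. Estimated depth had it too, at 23.3, 22.5 and 24.9 M fragments, and cKO 2 was the lowest cKO library for 48.5% of all genes. Of the 10 oocyte markers, Zp2 and Zp3, which encode egg coat proteins, rose and none fell. The log2 change was positive for 8 of them and negative for 2, and Zp2, Zp3 and Gdf9 were the most abundant in the sum. Among the 3 controls the order of Ldhb and of the markers was not the same. The part of the oocyte share of RNA in the Ldhb difference was not tested.

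**Figure D3:**
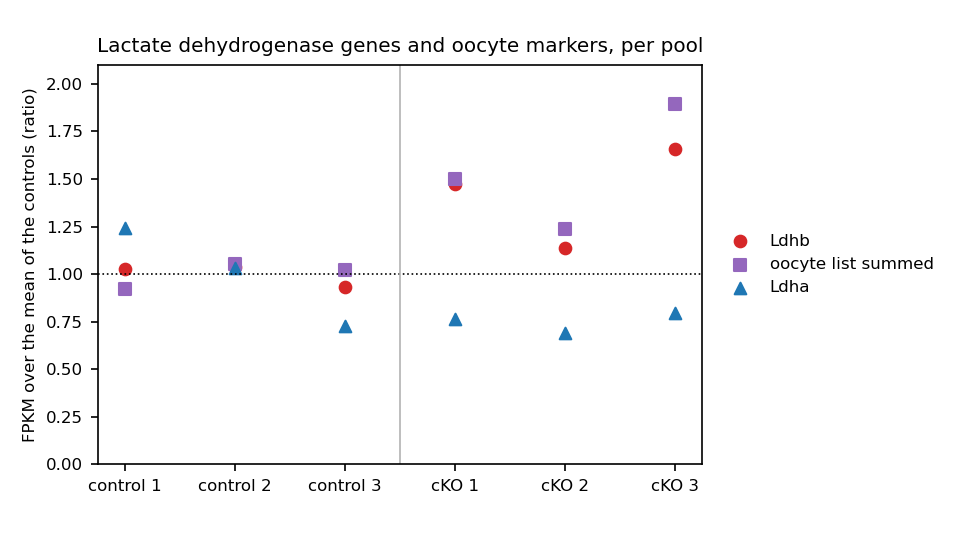
FPKM of Ldhb, of Ldha and of 10 oocyte markers summed, each divided by its mean over the 3 control pools (vertical axis, ratio), in the 6 pools. Ldhb and the oocyte markers are both highest in cKO 3, at 1.66 and 1.89, and Ldha is 0.693 to 0.797 in cKO and 0.725 in control 3.

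Glucose enters cells through facilitative carriers. Slc2a1, which encodes the widespread carrier GLUT1, was the more abundant carrier gene, at 8.25, 7.76 and 7.75 FPKM in control and 7.57, 7.08 and 8.92 FPKM in cKO. The log2 change was -0.02 with a 95% interval from -0.25 to 0.22, which holds changes of either sign. Slc2a3, which encodes the high-affinity carrier GLUT3, measured 2.05, 1.76 and 1.89 FPKM in control and 2.81, 2.81 and 3.26 FPKM in cKO. All cKO libraries were above all controls, and the log2 change was 0.45 ± 0.11 (standard error; limma, adjusted p = 0.065). GLUT3 is also a carrier of neutrophils, and Slc2a3 was highest in cKO 3, the library with neutrophil transcripts. In cKO 1 and cKO 2, where neutrophil markers summed to 1.24 and 0.84 FPKM, Slc2a3 measured 2.81 FPKM in each, and without cKO 3 its log2 change was 0.39 at an adjusted p of 0.111 by limma. The part of neutrophils in the Slc2a3 values was not tested. Slc2a3 made up 19.3% ± 0.74 of the summed transcripts of both carriers in control and 27.4% ± 0.87 in cKO (SD, n = 3).

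Hexokinase traps glucose in the cell as glucose 6-phosphate. Hk1 (chr10:62268855-62379908, minus strand) encodes the housekeeping form and Hk2 (chr6:82725025-82774454, minus strand) the inducible form. Hk1 measured 15.0, 14.5 and 14.6 FPKM in control and 24.7, 17.8 and 19.9 FPKM in cKO, with cKO above control throughout. The log2 change was 0.46 ± 0.12 (standard error; limma, adjusted p = 0.0748), and without cKO 1 it was 0.34 at an adjusted p of 0.140. Hk2 went the other way, at 7.34, 7.55 and 6.06 FPKM in control and 5.62, 3.30 and 5.29 FPKM in cKO, all below the controls, at an adjusted p of 0.143 for a log2 change of -0.50, which was -0.30 without cKO 2. Hk1 was 2.04, 1.92 and 2.41 times as abundant as Hk2 in control 1 to 3 and 4.40, 5.38 and 3.76 times in cKO 1 to 3. The groups did not overlap in this ratio, and Hk1 took 67.9% ± 2.51 of the pair in control and 81.6% ± 2.67 in cKO (SD, n = 3). The next enzyme gene, the isomerase gene Gpi1, measured 129.6, 124 and 109.9 FPKM in control and 143, 106 and 126 FPKM in cKO and overlapped between genotypes.

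Phosphofructokinase commits sugar to glycolysis and is built from liver, muscle and platelet type subunits. Pfkp, for the platelet type, is among the genes known to depend on the oocyte in cumulus cells. It measured 9.90, 9.04 and 5.98 FPKM in control and 5.37, 4.42 and 5.21 FPKM in cKO, so control 3 was the control nearest to cKO. Its log2 change, -0.61 ± 0.17 (standard error; limma, adjusted p = 0.0885), was the most negative among the 34. Without control 3 it fell by 0.81 at an adjusted p of 0.0199, and without both control 3 and cKO 3 it fell by 0.83 at an adjusted p of 0.0491. Without control 1 the log2 change was -0.48 at an adjusted p of 0.263. Pfkp (chr13:6579768-6648777, minus strand) shares 748 exon bases with Pitrm1 on the opposite strand, and whether strand was used in counting is not given in the sources used here. Pitrm1 measured 40.8 to 50.3 FPKM in control and 38.9 to 44.5 FPKM in cKO.

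The other subunit genes had log2 changes of 0.19 (Pfkm) and 0.03 (Pfkl). Pfkm, for the muscle type, measured 25.3, 24.9 and 23.9 FPKM in control and 31.3, 24.2 and 29.8 FPKM in cKO, and Pfkl, for the liver type, ranged from 22.0 to 28.0 FPKM over all libraries. Pfkp made up 15.7%, 15.6% and 11.5% of the summed transcripts of the 3 subunits in control and 8.31%, 8.44% and 8.82% in cKO. Pfkm made up 40.0% to 46.1% in control and 46.3% to 50.4% in cKO, a gap between the groups of less than the spread within either.

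The PFKFB enzymes make and break fructose 2,6-bisphosphate, the strongest activator of phosphofructokinase. All 4 genes had a positive log2 change, from 0.03 to 0.31, with adjusted p-values from 0.169 to 0.908. Pfkfb3, the most abundant, measured 8.07, 6.32 and 6.63 FPKM in control and 8.25, 7.44 and 8.38 FPKM in cKO. Pfkfb4 was closely repeated within groups, at 3.11, 3.05 and 3.18 FPKM in control and 3.80, 3.85 and 3.87 FPKM in cKO, and Pfkfb2 measured 3.03, 2.84 and 3.18 FPKM against 3.44, 4.79 and 3.77 FPKM. For both, all cKO libraries were above all controls. The log2 change of Pfkfb2, 0.31, was 0.20 without cKO 2. Pfkfb1 was the least abundant and its log2 change turned negative in 6 of 16 alternative settings. It shares 123 exon bases with Apex2 on the opposite strand, which averaged 7.55 FPKM. Pfkfb2 shares 1262 exon bases with Gm29427 on the same strand, a gene absent from the deposited table.

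Aldolase and the triose enzymes were abundant and showed small differences. Gapdh, the glyceraldehyde phosphate dehydrogenase gene often used as a reference, was the highest of the 34 in control, at 994, 886 and 764 FPKM, and measured 849, 657 and 829 FPKM in cKO. Its log2 change was -0.18 with a 95% interval from -0.50 to 0.14. Gapdh has many pseudogenes. Among annotated genes, 127 had a transcript at least 95% identical to it over at least 200 bases, and the 68 of them in the table summed to a mean of 169 FPKM, so its own level is uncertain. Aldoa, the main aldolase gene, ranged from 309 to 364 FPKM in control and from 286 to 387 FPKM in cKO. Aldoc, which made up at most 1.56% of the summed transcripts of both aldolases, measured 3.23, 3.31 and 4.90 FPKM in control and 2.83, 2.62 and 2.86 FPKM in cKO, without overlap, at an adjusted p of 0.214 for a log2 change of -0.34, which was -0.18 without control 3. Tpi1, for triose phosphate isomerase, ranged from 157 to 209.5 FPKM in control and from 147 to 170.0 FPKM in cKO.

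In the lower part of glycolysis, both Pgk1 and Pgam1 lay below the controls in every cKO library. Pgk1 encodes phosphoglycerate kinase, the first step that yields ATP, and measured 133, 123 and 97.4 FPKM in control and 96.5, 85.7 and 93.0 FPKM in cKO. Its log2 change was -0.35 at an adjusted p of 0.14 by limma, and without control 3 it fell by 0.48 at an adjusted p of 0.0413. Without control 1 the log2 change was -0.26 at an adjusted p of 0.368, and without both control 3 and cKO 3 it was -0.49 at 0.0726. Pgam1, a phosphoglycerate mutase gene, measured 210.2, 189 and 169 FPKM in control and 164, 149.8 and 157 FPKM in cKO, with an adjusted p of 0.155. Eno1, the main enolase gene, measured 189, 159.6 and 130.4 FPKM in control and 151, 109.7 and 139 FPKM in cKO, and the groups overlapped. For Eno1, 4 annotated genes had a transcript at least 95% identical over at least 200 bases. The 2 of them in the table summed to a mean of 17.4 FPKM, which adds uncertainty to its level. Pkm, for pyruvate kinase, measured 235, 214 and 192 FPKM in control and 245, 176 and 226 FPKM in cKO. Its log2 change was 0.00 with a 95% interval from -0.32 to 0.32, and its splice forms M1 and M2 were not separated in gene values. Eno2 and Eno3, the neuronal and muscle enolases, stayed at or below 6.49 FPKM.

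Bpgm makes 2,3-bisphosphoglycerate, an abundant regulator of haemoglobin in red cells. It measured 85.0, 80.4 and 88.1 FPKM in control and 98.2, 75.5 and 109.8 FPKM in cKO, with overlap. Erythroid markers varied far more, with 5 markers summing to 3477, 2121 and 1058 FPKM in control and 770.4, 417 and 2177 FPKM in cKO. Bpgm was highest in control 3, the control with the lowest erythroid sum, while in cKO its order was that of the erythroid sum. The part of red cells in the Bpgm values was not tested.

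Several of these enzyme genes were graded within the controls. Gapdh, Tpi1, Pgk1, Pgam1, Eno1, Ldha and Pfkp were all highest in control 1 and lowest in control 3. The same order held for Slc2a1, Slc16a1 and Pdk4, which like these had negative log2 changes. It also held for Aldoa, Gpi1, Pfkl, Pfkm, Pfkfb1, Pkm, Pdk1, Pdk2 and Slc16a3. Their log2 changes were positive, from 0.00 for Pkm to 0.41 for Slc16a3. Control 3 was the lowest control for 21 of the 34 genes (61.8%), against 39.3% of all genes tested. In cKO the lowest library was cKO 2 for 24 of the 34 (70.6%), against 48.5% of all genes. The granulosa marker sum had the same order in control (3915, 3573 and 3096 FPKM) and was also lowest in cKO 2 (2088 FPKM). It was not alone in this. The erythroid sum (3477, 2121 and 1058 FPKM) and the proliferation sum (429, 403 and 381 FPKM) had that control order. Both were lowest in cKO 2, at 417 and 258 FPKM. Estimated depth did the same, at 22.7, 21.6 and 19.6 M fragments in control and 22.5 M in cKO 2. The sums of the other marker lists did not have this control order. Of the 11 granulosa markers, Gatm rose, and Inha, Gja1 and Inhbb fell, of which Inha and Gja1 make up most of the sum. Gatm measured 32.3, 33.7 and 41.8 FPKM in control, the reverse of the order of the sum. Proliferation markers summed to 381 to 429 FPKM in control and 258 to 280.5 FPKM in cKO, and of the 7 markers 4 fell and none rose. The part of cell makeup in the differences of the glycolytic genes was not tested.

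A set of 6 genes known to be promoted by the oocyte in cumulus cells is Aldoa, Eno1, Ldha, Pfkp, Pkm and Tpi1. That knowledge is from cumulus cells of grown follicles, while these libraries hold whole ovary at postnatal day 14, so the values are no check of it. The 6 genes were set side by side after their values had been seen, and their log2 changes were 0.03, -0.26, -0.38, -0.61, 0.00 and -0.19. Only Pfkp had all cKO libraries below all controls. Which oocyte ligands act on these genes was not tested. Among ligands made by oocytes, Gdf9 measured 197, 237 and 228 FPKM in control and 259, 198 and 343 FPKM in cKO. Bmp15 measured 51.8, 60.4 and 29.5 FPKM in control and 14.6, 30.9 and 48.6 FPKM in cKO. The groups overlapped for both ligands, at adjusted p-values of 0.476 for Gdf9 and 0.381 for Bmp15 by limma.

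Monocarboxylate carriers move lactate and pyruvate across the cell membrane. Slc16a1, which encodes MCT1, measured 27.7, 23.4 and 23.2 FPKM in control and 19.6, 20.9 and 23.0 FPKM in cKO. The groups did not overlap, but control 3 and cKO 3 were nearly level, and the adjusted p was 0.239 for a log2 change of -0.22, which was -0.14 without control 1. Slc16a3, which encodes MCT4, the carrier of cells that export much lactate, measured 8.79, 7.07 and 5.01 FPKM in control and 8.71, 10.1 and 9.24 FPKM in cKO, with an adjusted p of 0.201 for a log2 change of 0.41, which was 0.22 without control 3. Slc16a1 was 3.16, 3.30 and 4.63 times as abundant as Slc16a3 in control and 2.25, 2.07 and 2.48 times in cKO, again without overlap. Slc16a7, for the high-affinity pyruvate carrier MCT2, lay between 1.10 and 1.30 FPKM in all 6 libraries.

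**Figure D4:**
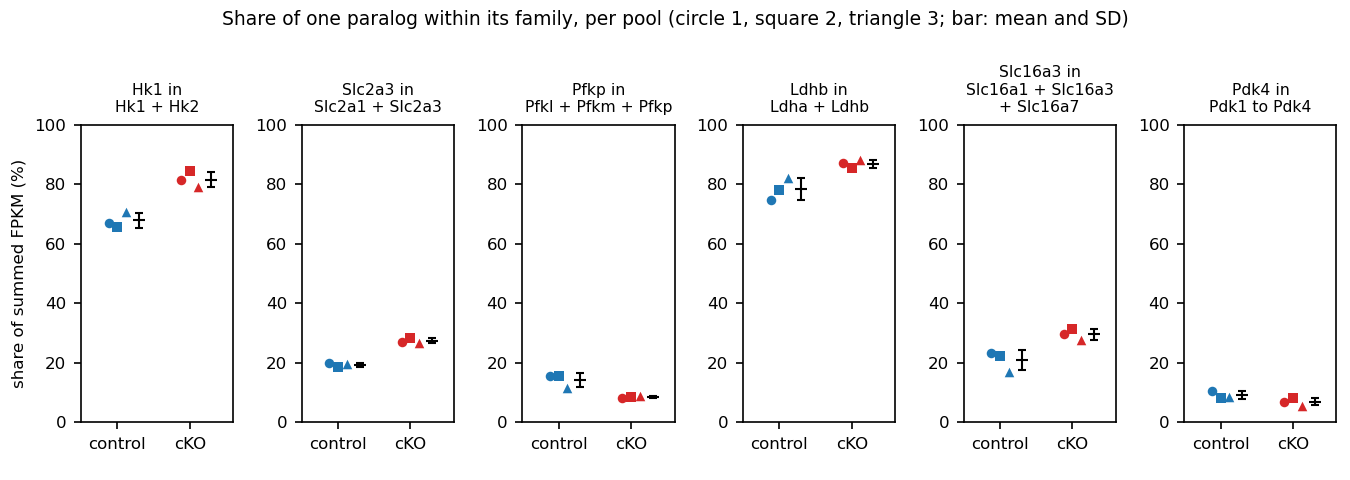
Share of one gene in the summed FPKM of its family (vertical axis, percent) in each of the 6 pools, with the mean and SD of 3 pools as a bar, for the 6 families in which a share did not overlap between genotypes. Hk1, Slc2a3, Ldhb and Slc16a3 took a larger share in all cKO pools, and Pfkp and Pdk4 a smaller one.

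Shares were computed for 9 families of related genes, and in 6 of them at least 1 gene had a share that did not overlap between genotypes (8 of 22 shares). Of single genes in the table, 30.0% did not overlap. The same was not computed for shares, and shares within a family depend on each other. In the PFKFB, aldolase and enolase families every share overlapped. These shares are descriptions, with no test.

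Pyruvate dehydrogenase feeds pyruvate into the citric acid cycle and is switched off by its kinases. Of the 4 kinase genes, Pdk2 was the most abundant, at 23.2, 22.5 and 22.3 FPKM in control and 33.6, 22.1 and 26.5 FPKM in cKO. Its log2 change of 0.24 was 0.09 without cKO 1. Pdk3 ranged from 17.5 to 22.0 FPKM over all libraries, and Pdk1, a target of hypoxia signalling, measured 10.9, 10.3 and 6.68 FPKM in control and 13.3, 9.44 and 8.35 FPKM in cKO. Pdk4, the kinase induced by fasting, measured 6.35, 4.56 and 4.43 FPKM in control and 5.20, 4.33 and 3.32 FPKM in cKO. Its share of the 4 kinase transcripts was 8.19% to 10.6% in control and 5.67% to 8.13% in cKO, ranges that nearly met. Adjusted p-values of the kinase genes ran from 0.338 to 0.726. Pdha1, for the catalytic subunit of the complex, measured 31.9, 32.0 and 33.6 FPKM in control and 37.9, 34.0 and 35.1 FPKM in cKO, without overlap, with a log2 change of 0.13, 0.08 without cKO 1, and an adjusted p of 0.341. Dlat, for the acetyltransferase subunit, lay between 29.8 and 34.6 FPKM throughout.

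Other genes of glucose and pyruvate metabolism and of hypoxia signalling came from fixed lists of 62 genes, of which 61 were in the table and 50 were tested. Of these 50, 1 fell and none rose, beside 2.09% and 2.24% of all genes. The gene that fell was Bnip3, a mitophagy gene and target of hypoxia-inducible factor, at 42.5, 38.8 and 41.7 FPKM in control and 28.9, 29.6 and 30.8 FPKM in cKO. Its log2 change was -0.45 ± 0.07 (standard error; limma, adjusted p = 0.0275). The call was lost, at adjusted p-values from 0.0614 to 0.135, without control 1, control 2, cKO 1 or cKO 2, and it was 0.0726 without control 3 and cKO 3 and 0.0638 with no filter on low values. The other 14 tested genes of that list of 15 did not pass, and 12 of the 15 had a positive log2 change, beside 58.5% of all genes. Hif1a, which encodes an oxygen-regulated subunit of the factor, measured 52.7, 45.5 and 44.3 FPKM in control and 41.9, 35.5 and 41.0 FPKM in cKO, and Ddit4, another target, 31.9, 31.2 and 36.1 FPKM against 44.7, 38.7 and 44.7 FPKM, at adjusted p-values of 0.169 and 0.0758. Hif1a and Ddit4 were picked for naming after their values were seen.

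No gene passed among 9 further genes of pyruvate entry, where the most abundant were Dld, with 71.7 ± 1.04 FPKM over the controls and 67.0 ± 4.63 over the cKO libraries (SD, n = 3), and Pdhb, at 56.8 ± 3.48 and 54.5 ± 3.98 FPKM. In this list Pdp1, a phosphatase gene that reverses the kinases, Pdpr, its regulator, and Pcx had all cKO libraries above all controls. These were 3 of the 9, beside 18.0% of all genes, and were named after their values were seen. Pdp1 measured 31.1 ± 3.19 FPKM in control and 40.8 ± 4.62 in cKO (SD, n = 3). Pdpr measured 4.12 ± 0.40 and 6.64 ± 1.45 FPKM, and Pcx 6.77 ± 0.78 and 9.08 ± 1.41 FPKM. Adjusted p-values by limma were 0.0953 for Pdp1, 0.0839 for Pdpr and 0.137 for Pcx. Of 2 partners of the monocarboxylate carriers neither passed; Bsg, for the chaperone basigin, averaged 343 ± 15.9 FPKM over the controls and 316 ± 18.7 over the cKO libraries (SD, n = 3), and Emb 1.87 ± 0.28 and 2.47 ± 1.00 FPKM.

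None of 8 other glycolysis genes passed, led in level by Adpgk, a glucokinase gene that uses ADP, with 34.1 ± 4.25 FPKM over the controls and 28.2 ± 1.35 over the cKO libraries (SD, n = 3), and by Minpp1, with 33.4 ± 0.63 and 29.2 ± 1.94 FPKM. None of 9 glycogen and gluconeogenesis genes passed. There the brain type glycogen phosphorylase gene Pygb, the most abundant, measured 79.6, 75.9 and 75.3 FPKM in control and 65.3, 48.4 and 61.0 FPKM in cKO, and the liver type gene Pygl, named after its values were seen, 8.37, 8.76 and 9.79 FPKM against 14.0, 10.3 and 14.5 FPKM. The cKO libraries lay below the controls for Pygb and above them for Pygl, at adjusted p-values of 0.0885 and 0.0892 by limma. Pck2, for mitochondrial phosphoenolpyruvate carboxykinase, measured 29.0 and 27.7 FPKM on average in control and cKO. None of 7 pentose phosphate genes passed, and the most abundant, the transketolase gene Tkt, measured 102 ± 9.16 and 104 ± 14.3 FPKM (SD, n = 3), followed by Pgls at 89.7 ± 12.3 and 80.6 ± 9.40 FPKM.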

How the data were processed

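Whole ovaries were profiled by RNA sequencing, and the deposited table holds FPKM per gene, made by the authors, for 3 control and 3 cKO libraries. The submitters' processing notes list TopHat2 2.0, Cufflinks 2.0 and the mm10 build without saying how each was used. Annotation, strand setting and any scaling between libraries: not given in the sources used here. The floxed gene is not reported here.

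Groups follow the genotype label. FPKM values are not counts, so limma 3.58.1 in R 4.3.3 (lmFit, eBayes with trend) was run on log2(FPKM + 1) for the 14934 genes with a mean of at least 0.5 FPKM, and p-values were adjusted by Benjamini-Hochberg over all of them. Fold changes on this scale understate those of low genes. The verbs rose and fell are kept for genes past an adjusted p of 0.05. The procedure was tested on simulated data with independent noise and planted changes larger than any among the 34 genes. That test does not bear on changes of their size or on differences between single libraries.

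Depth was estimated from genes with 1 transcript, at least 1500 exon bases and FPKM below 0.15, each read as 1 fragment after taking 150 bases off the length. Gene positions and exon overlaps are from GENCODE M21 on GRCm38, the assembly of mm10, 1-based. Promoters are from RefSeq.

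The genes, lists and rules were chosen with earlier results of these data known. Genes given in full were those whose groups did not overlap or that were highest in their step. Ldha, Eno1, Bpgm, Slc16a3, Pdk1 and Pdk4 were given in full outside this rule, after their values were seen. Of the other lists, the rule took genes that passed, or the 2 highest. Others are said to be named after their values were seen. Alternatives were pseudocounts of 0.1 and 0.5, no filter, a mean of at least 2 FPKM, centring on the median or on reference genes, quantile normalisation, no trend, array weights and leaving out each library.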

Additional observations from a re-analysis of the deposited data

How the results depend on the processing

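No paired analysis was possible because pools carry no number in the labels. Leaving out control 3 and cKO 3 together was chosen after seeing the data. Over all genes 334 were higher and 312 lower; the counts were 4 and 24 with no filter, 1041 and 743 with array weights, 204 and 267 without control 3 and cKO 3, 254 and 577 centred on the median, and 270 and 421 after quantile normalisation. Leaving out single libraries gave 0 to 307 higher and 2 to 353 lower.

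Of the 34 genes 0 passed. Quantile normalisation gave 1 higher (Ldhb), reference centring 1 (Ldhb), no trend 1 (Slc2a3), and array weights 3 higher (Slc2a3, Hk1, Ldhb) and 2 lower (Pfkp, Pgk1). Without control 3 and cKO 3, 1 was lower (Pfkp). With single libraries left out, 0 were higher and 0 to 3 lower, the 3 being Pfkp, Ldha and Pgk1 without control 3. Of the 50 other pathway genes, quantile normalisation gave 1 higher and array weights 3 higher and 2 lower. Median centring gave 2 lower, and 0 were lower with no filter or without control 3 and cKO 3. Leaving out single libraries gave 0 to 1 higher and 0 to 1 lower.

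Of the 34 genes 24 kept their direction in every alternative run for them (16, but 15 for Eno2), and 10 did not. Centred on the median, log2 changes turned to -0.0305 for Gpi1, -0.0321 for Pfkl, -0.0315 for Pfkfb1, -0.0313 for Aldoa, -0.0088 for Eno3 and -0.0625 for Pkm. Quantile normalisation gave -0.0778 for Pfkfb1 and -0.0408 for Eno3. Reference centring gave 0.0026 for Slc2a1. Array weights gave 0.0186 for Slc2a1 and 0.0109 for Dlat. Without control 3 and cKO 3 they were -0.0441 for Gpi1, -0.0135 for Pfkl, -0.0968 for Pfkfb1, -0.0515 for Aldoa, -0.1115 for Pkm, 0.015 for Slc16a7 and 0.0006 for Dlat. Over single libraries left out they ranged -0.0999 to 0.0483 for Slc2a1, -0.0651 to 0.1463 for Gpi1, -0.0431 to 0.1237 for Pfkl, -0.0589 to 0.1307 for Pfkfb1, -0.0573 to 0.1593 for Aldoa, -0.0171 to 0.1487 for Eno3, -0.0959 to 0.1426 for Pkm, -0.0598 to 0.2683 for Pdk1 and -0.0849 to 0.0188 for Dlat. The cause of these changes was not tested. Depth limits the precision of genes at low FPKM, and how far it does so was not compared between genes.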
